A study of Mus musculus with 6 samples.

Results

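The small leucine-rich proteoglycan (SLRP) genes make the core proteins that coat and space collagen fibrils. They were read here as 9 genes chosen by symbol in a count table of 16982 genes. The members are decorin (Dcn), biglycan (Bgn), asporin (Aspn), lumican (Lum), fibromodulin (Fmod), osteomodulin (Omd), prolargin (Prelp), osteoglycin (Ogn) and podocan (Podn), and all 9 passed the filter on low counts. RNA-seq was run on 3 WT (Rnf20+/+) and 3 Rnf20 KO (Rnf20-/-) libraries of reprogrammable cells, harvested on day 3. The cells are mouse embryonic fibroblasts (MEF) of the C57BL/6 background into which retroviruses brought OCT4, SOX2, KLF4 and C-MYC. RNF20 is the E3 ligase that places monoubiquitin on histone H2B. In the knockout a floxed Rnf20 (Rnf20 Flox/Flox) was removed by a Cre recombinase that is active in every cell type and is switched on by 4-OH tamoxifen. The labels give both genotypes as untreated, and the sources used here do not say whether the WT cells carried the floxed allele and the Cre or met tamoxifen. Infected MEF were re-plated on mitomycin-C-treated MEF feeder layers in the study's reprogramming protocol. It is not stated whether the cultures taken for RNA held such feeders, and SLRP transcripts of feeder fibroblasts and of reprogramming cells cannot be told apart. Nothing in the labels says that the 3 libraries of a genotype came from separate cultures, so the p-values measure the spread among these libraries only.

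SLRPs are secreted proteins whose leucine-rich repeats fold into a curved solenoid that binds collagen. Dcn and Bgn carry chondroitin or dermatan sulphate chains, Lum and Fmod carry keratan sulphate chains, and Aspn lacks the site for a glycosaminoglycan (GAG) chain. They limit how wide collagen fibrils grow and also bind growth factors and cell surface receptors. Fibroblasts are a main source of these proteins, and genes of the fibroblast matrix are among those that are shut down when fibroblasts are reprogrammed. The comparison asked whether the level of each SLRP transcript on day 3 differed between cells with and without Rnf20. No library of another day or of uninfected fibroblasts was analysed here, so a fall over the course of reprogramming was not measured.

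Most of these genes stand in clusters. Positions are those of GENCODE release M21 on GRCm38. Aspn (chr13:49544443-49567565), Omd (chr13:49582462-49592822) and Ogn (chr13:49608046-49624501) lie in a row on the plus strand, 14.9 and 15.2 kb apart with no other coding gene between them. A further family gene, Ecm2, ends 11.7 kb before Aspn. Dcn (chr10:97479609-97518143) and Lum (chr10:97565128-97572703) are neighbours on the plus strand with 47 kb between them. Prelp (chr1:133910304-133921414, minus strand) and Fmod (chr1:134037254-134048277, plus strand) are neighbours on opposite strands with 116 kb between them. Bgn (chrX:73483602-73495933, plus strand) and Podn (chr4:108014791-108096445, minus strand) have no other member as a neighbour. Exons of Aspn overlap exons of Cenpp, and exons of Prelp overlap exons of Gm15851, in both cases on the opposite strand. The libraries were stranded but the setting used in counting is not given in the sources used here, so reads of these overlaps could belong to either gene.

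The sequences just upstream of the 3 clustered chromosome 13 genes are shown because these genes had nearly the same profile over the 6 libraries. A sequence upstream of a RefSeq start of Podn is shown because Podn is the member that passed the test. Each is 250 bases, 5′ to 3′, ending at the base before a RefSeq transcript start on GRCm38.p6. In the first 3, capitals mark matches to the motifs searched, and in Podn they mark CpG dinucleotides.
Aspn (chr13:49544193-49544442, plus strand): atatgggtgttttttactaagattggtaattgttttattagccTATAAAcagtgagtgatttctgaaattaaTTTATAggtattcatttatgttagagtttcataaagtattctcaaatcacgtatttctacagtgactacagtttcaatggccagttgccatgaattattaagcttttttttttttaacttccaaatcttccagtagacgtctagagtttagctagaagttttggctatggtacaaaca
Omd (chr13:49582212-49582461, plus strand): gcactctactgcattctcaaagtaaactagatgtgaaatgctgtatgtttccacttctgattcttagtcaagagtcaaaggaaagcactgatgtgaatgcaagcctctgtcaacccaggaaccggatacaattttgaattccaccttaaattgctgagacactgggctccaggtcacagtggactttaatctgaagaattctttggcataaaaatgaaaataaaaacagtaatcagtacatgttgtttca
Ogn (chr13:49607765-49608014, plus strand): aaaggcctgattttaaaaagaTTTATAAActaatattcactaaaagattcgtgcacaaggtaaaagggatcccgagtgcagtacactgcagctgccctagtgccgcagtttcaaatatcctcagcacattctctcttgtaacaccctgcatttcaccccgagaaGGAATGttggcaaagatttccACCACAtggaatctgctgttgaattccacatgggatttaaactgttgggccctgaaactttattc
Podn (chr4:108031955-108032204, minus strand): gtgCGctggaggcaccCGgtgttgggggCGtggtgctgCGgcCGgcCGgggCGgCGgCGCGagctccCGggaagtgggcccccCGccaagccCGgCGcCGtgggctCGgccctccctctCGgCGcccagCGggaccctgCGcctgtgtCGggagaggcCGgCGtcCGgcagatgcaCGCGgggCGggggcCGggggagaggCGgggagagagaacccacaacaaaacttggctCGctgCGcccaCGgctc

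These 4 windows differ in base composition. The Aspn, Omd and Ogn windows hold 2, 1 and 4 CpG dinucleotides, against a median of 6 over 32851 windows of the same length in the RefSeq table. The Podn window holds 32, and 95.4% of all windows hold fewer. A second RefSeq start of Podn has 7. Both Podn windows lie inside the GENCODE span of the gene (chr4:108014791-108096445), not upstream of it. RefSeq windows were matched for 7 of the 9 members, and those of Bgn, Prelp and Fmod hold 7, 5 and 2. Dcn and Lum had no entry. The motifs were chosen after the sequences had been seen and were searched on both strands as TATAAA (the box bound by the TATA-binding protein), ATGCNAAT (octamer), CACGTG (E-box of MYC), TGANTCA (AP-1), GGAATG (TEAD), ACCACA (RUNX) and ACAATG (SOX). In the same order, 12.4%, 2.86%, 6.02%, 6.75%, 12.6%, 14% and 10.7% of all windows hold each motif. The Aspn window holds TATAAA at 207 and, on the other strand, at 178 bases before the start. That of Ogn holds TATAAA on both strands in overlapping copies whose first bases are at 229 and 227, and it also holds GGAATG at 86 and ACCACA at 65. None of the 7 motifs is in the Omd window or in those of the other 4 genes that were matched.

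The libraries held between 20545442 and 21746898 counts. Rnf20 itself had 107, 107 and 106 CPM (counts scaled to TMM-normalized library sizes) in WT replicates 1 to 3 and 18.7, 18.5 and 16.4 CPM in knockout replicates 1 to 3. Knockout replicate 3 stood apart from its group, with a chi-square per gene of 92.4 and 101 against knockout replicates 1 and 2, while all other pairs within a genotype gave 6.04 to 8.92. It had the highest summed level of 8 macrophage markers (254 CPM, against 53.9 to 110 CPM in the other libraries). Of these, Lyz2, Adgre1, Cd14, Csf1r and Ptprc were highest there, C1qb and Cd68 lay within the range of the other libraries, and C1qa was at its lowest (3.71 CPM, against 3.80 to 8.26 CPM). It also had the lowest sum of 5 epithelial markers (4.81 CPM, against 28.4 to 50.9 CPM) and of 12 fibroblast markers (22210 CPM, against 30830 to 40420 CPM). Of the fibroblast markers, Col1a1, Col1a2, Col3a1, Fbln1, Pdgfra and Thy1 were lowest in knockout replicate 3. S100a4 was highest there, Vim and Fn1 were above all WT libraries, and Pdgfrb, Prrx1 and Twist1 lay within the WT range. All 12 fibroblast markers, among them Col1a1, Col1a2 and Vim, were detected in every library, while of the 5 pluripotent markers Zfp42, Esrrb, Dppa4 and Lin28a had at most 2 counts in any library. The remaining pluripotent marker, Nanog, was at 0.903, 2.23 and 0.902 CPM in WT and at 0.811, 0.617 and 0.286 CPM in knockout. Summed Y-linked transcripts were at 227 to 242 CPM in WT, 266 CPM in knockout replicate 2, and 0 and 0.0476 CPM in knockout replicates 1 and 3. Their presence thus differed within the knockout group and was partly confounded with genotype. For these reasons each of the 9 SLRP genes is given by library and each of their tests also without knockout replicate 3. The part of the markers in the results was not tested. In bulk RNA, fewer cells of a type and less RNA per cell cannot be told apart.

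Bgn was by far the most abundant SLRP transcript in both genotypes, and the order of the 9 genes spanned more than 2 orders of magnitude. Levels of different genes were compared in the authors' FPKM, which is scaled to transcript length. In WT cells the mean was 749 ± 59.4 FPKM (SD, n = 3) for Bgn, 128 ± 13.8 for Dcn and 93.7 ± 7.61 for Lum. It was 66.6 ± 1.12 for Aspn, 65.7 ± 2.48 for Ogn, 58.7 ± 4.75 for Prelp and 29.6 ± 1.51 for Fmod. Podn, at 9.01 ± 1.1 FPKM, and Omd, at 3.8 ± 0.335 FPKM, were the lowest. Aspn and Ogn were the only neighbours in this order whose WT libraries overlapped. Counts per kilobase of the gene length given with the counts placed Prelp at rank 4 in WT, ahead of Aspn and Ogn, and otherwise kept the order. In knockout cells the order was Bgn, Dcn, Prelp, Aspn, Ogn, Lum, Fmod, Podn and Omd. There the libraries of Prelp, Aspn, Ogn, Lum and Fmod overlapped from each gene to the next, as did those of Podn and Omd. Lum had rank 3 in WT and rank 6 in knockout, with a knockout mean of 42.3 ± 27 FPKM.

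**Figure D1:**
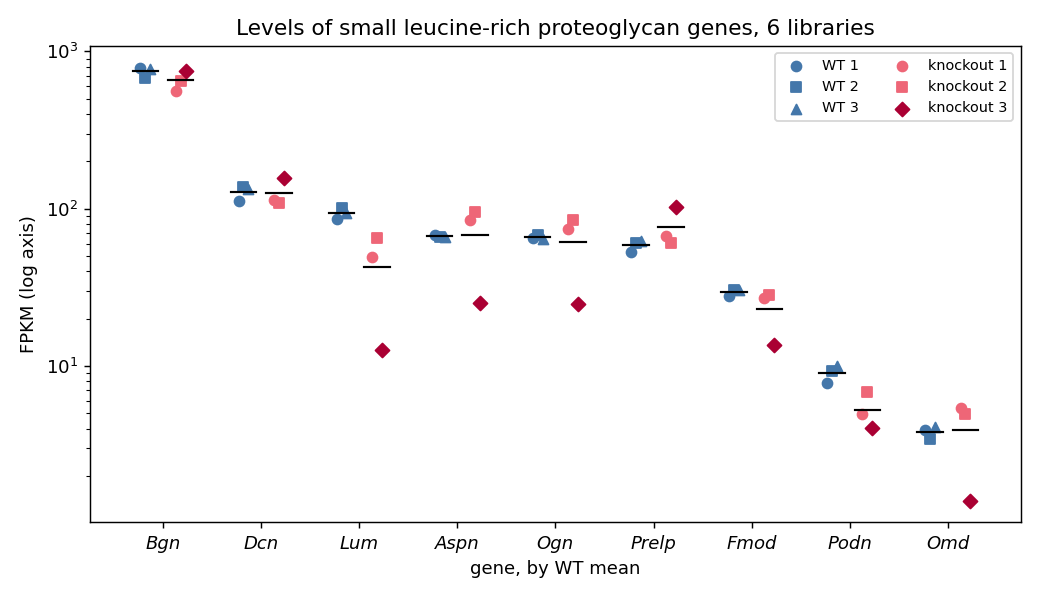
Level of each SLRP gene in FPKM on a log axis, with genes ordered by WT mean; points are libraries (blue WT, red knockout) and black bars are means of 3. The WT libraries of each gene lie close together, while knockout replicate 3 (dark diamond) lies far below the other knockout libraries for Lum, Aspn, Ogn and Omd.

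Bgn made up 58.8% to 65.1% of the summed SLRP FPKM in WT and 57% to 68.6% in knockout. Lum made up 7.08% to 8.72% in WT, and 4.97%, 5.91% and 1.15% in knockout replicates 1 to 3. The summed level of the 9 genes was 2460, 2350 and 2430 CPM in WT and 2050, 2300 and 2490 CPM in knockout. These sums overlap between the genotypes and mainly follow Bgn.

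Of the 9 SLRP genes 1, Podn, fell in knockout cells and none rose at an adjusted p under 0.05, as tested in edgeR (quasi-likelihood, p adjusted after Benjamini-Hochberg over 13386 genes). Among all genes tested 16.6% were lower and 16.4% were higher by that rule. The unadjusted p was under 0.05 for the same 1 member and for 0 higher members, and DESeq2 and the edgeR exact test also gave 0 higher members. The study's thresholds (FDR under 0.01, a fold change over 2 and FPKM over 1), applied to the fit made here, called 0 members. They called 3.59% of all genes in that fit, and also 0 members with DESeq2 and with the edgeR exact test. The authors' own calls were not used, so these counts are not the study's. The median log2 fold change of the 9 genes, knockout over WT, was -0.085, and that of all genes tested was -0.000324. In 3 of the 9 genes (33.3%) the libraries of the genotypes did not overlap, against 54.8% of all genes. These were Lum and Podn, lower in all 3 knockout libraries, and Prelp, higher in all 3.

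Podn, a member of the family that was first described in kidney podocytes, was at 27.4, 31.8 and 32.2 CPM in WT. In knockout it was at 16.3, 22.0 and 14.0 CPM. Every knockout library was below every WT library, at 53.4%, 72.2% and 46.0% of the WT mean. The log2 fold change was -0.81 (SE 0.18, adjusted p = 0.0166 by edgeR's quasi-likelihood test). Without knockout replicate 3 it was -0.67 (adjusted p = 0.00186), and still passed. The adjusted p was above 0.05 without WT replicate 2 (0.0669) and without WT replicate 3 (0.0714), with log2 fold changes of -0.78 and -0.77. Those 2 fits called 6.13% and 5.17% of all genes lower, against 16.6% with all libraries. All WT libraries and knockout replicate 2 held Y-linked transcripts, while knockout replicates 1 and 3 were classed as lacking them. A fit with their presence as a covariate therefore sets only knockout replicate 2 against WT. It gave a log2 fold change of -0.47, and replicate 2 had the highest Podn level of the knockout group.

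Lum, a keratan sulphate proteoglycan that keeps collagen fibrils thin in the cornea, was at 134, 162 and 144 CPM in WT. It was at 77.0, 102 and 21.3 CPM in knockout. All knockout libraries were below all WT libraries, but replicate 3, at 14.5% of the WT mean, was far below replicates 1 and 2, at 52.6% and 69.6%. The log2 fold change was -1.13 (SE 0.49, adjusted p = 0.119, edgeR's quasi-likelihood test), the most negative of the 9 genes, and it did not pass. Without knockout replicate 3 it was smaller, -0.71, and passed (adjusted p = 0.000594). The SD of log2 CPM over the 3 knockout libraries was 1.2 for Lum, above that of 97.6% of all genes tested.

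Prelp, which links collagen to heparan sulphate of basement membranes, had its higher values in knockout. It was at 198, 225 and 223 CPM in WT and at 255, 233 and 402 CPM in knockout. Replicate 3 was the highest, at 187% of the WT mean, and replicate 2 was above the highest WT library by a small margin. The log2 fold change was 0.46 (SE 0.21, adjusted p = 0.126, edgeR's quasi-likelihood test). Without knockout replicate 3 it was 0.18, with an adjusted p of 0.0497 just inside the limit.

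Aspn, Ogn and Omd, the chromosome 13 neighbours, lay above all WT libraries in knockout replicates 1 and 2 and below all of them in replicate 3. Such a profile was found in 3.98% of all genes tested. Aspn, which binds collagen and can promote its mineralization, was at 117, 117 and 115 CPM in WT and at 145, 163 and 50.2 CPM in knockout. Its coefficient of variation was 1.24% in WT and 50.7% in knockout. Its log2 fold change was 0.037 (SE 0.39, adjusted p = 0.947 by edgeR), and without knockout replicate 3 it was 0.41 (adjusted p = 0.00039). Ogn, also called mimecan, was at 122, 133 and 122 CPM in WT and at 139, 161 and 55.7 CPM in knockout. With all libraries its log2 fold change was -0.085 (SE 0.35, adjusted p = 0.868 by edgeR) and turned to 0.26 (adjusted p = 0.0144) without knockout replicate 3. Omd, a bone matrix protein that binds hydroxyapatite, had only 84 to 93 counts in a WT library and 38 to 128 in a knockout library. It was at 4.42, 3.99 and 4.41 CPM in WT and at 6.11, 5.70 and 1.81 CPM in knockout. Its fitted log2 fold change was 0.087 (SE 0.43, adjusted p = 0.889 by edgeR), and without knockout replicate 3 it was 0.47 and just outside the limit (adjusted p = 0.0508). Near-zero fold changes of these 3 genes were therefore averages of knockout libraries on either side of WT, about 1.2 log2 units below the WT mean in replicate 3 (-1.21, -1.17 and -1.20 for Aspn, Ogn and Omd).

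**Figure D2:**
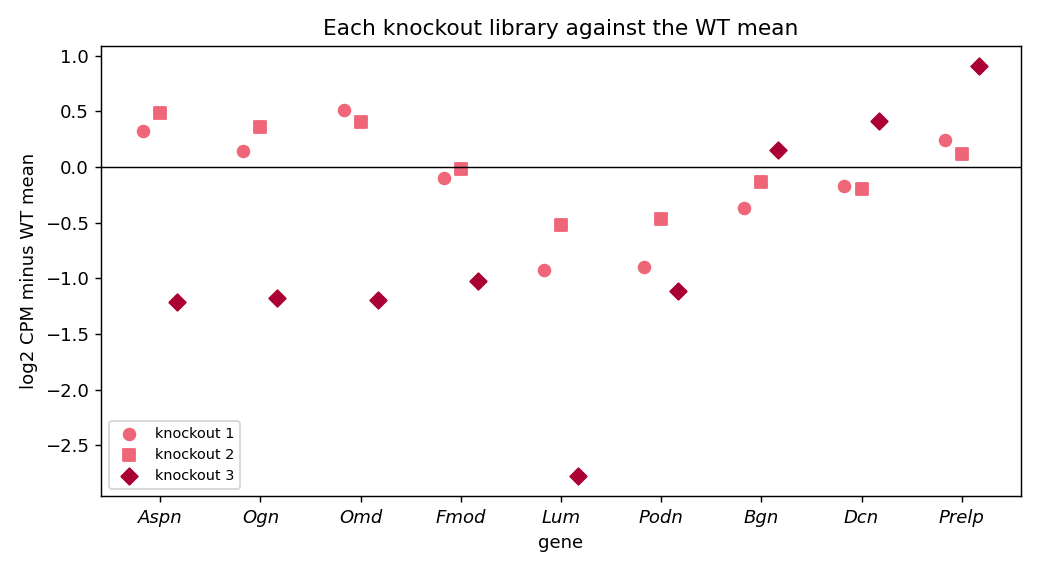
Log2 CPM of each knockout library minus the mean of the 3 WT libraries, by gene; the line at 0 is the WT mean. Aspn, Ogn and Omd show replicates 1 and 2 above 0 and replicate 3 near -1.2, Fmod shows replicates 1 and 2 near 0, and Bgn and Dcn show replicates 1 and 2 below 0 and replicate 3 above it.

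Bgn and Dcn, the members that carry chondroitin or dermatan sulphate, showed the reverse order. Bgn, which as a free protein is a ligand of Toll-like receptors, was at 1606, 1386 and 1512 CPM in WT and at 1161, 1362 and 1661 CPM in knockout. Knockout replicates 1 and 2 were below and replicate 3 was above all WT libraries, a profile found in 2.87% of all genes tested. Its log2 fold change was -0.11 (SE 0.14, adjusted p = 0.588 by edgeR). It was -0.25 without knockout replicate 3 (adjusted p = 0.0301) and 0.015 without knockout replicate 1 (adjusted p = 0.939). Dcn, which binds TGF-beta and several receptor tyrosine kinases, was at 161, 201 and 187 CPM in WT and at 162, 159 and 243 CPM in knockout. Knockout replicate 3 was above the highest WT library and replicate 2 just below the lowest. The fitted log2 fold change was 0.037 (SE 0.18, adjusted p = 0.888 by edgeR), and -0.19 without knockout replicate 3 (adjusted p = 0.0834).

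Fmod, which binds collagen at a site shared with Lum and takes part in its cross-linking, was at 85.8, 93.2 and 90.6 CPM in WT. In knockout it was at 83.8, 88.8 and 44.1 CPM. Replicates 1 and 2 were at 93.3% and 98.9% of the WT mean and replicate 3 was at 49.1%. Its log2 fold change was -0.31 (SE 0.25, adjusted p = 0.353 by edgeR) and -0.056 without knockout replicate 3 (adjusted p = 0.483).

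Without knockout replicate 3, 6 of the 9 SLRP genes passed, compared with 1 when all libraries were used. Aspn, Ogn and Prelp were higher, against 23.9% of all genes, and Lum, Podn and Bgn were lower, against 24.2% of all genes. The knockout group then holds 2 libraries, and the size of these differences ranged from -0.71 for Lum to 0.41 for Aspn on the log2 scale. In knockout replicate 3 the median of the 9 genes was -1.11 relative to the WT mean, against -0.099 and -0.016 in replicates 1 and 2. The median SD of log2 CPM over all genes was 0.199 in knockout and 0.0961 in WT. In knockout all 9 members exceeded that median, from 0.259 for Bgn to 1.2 for Lum. Aspn, at 0.0179, was the member with the smallest SD in WT.

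**Figure D3:**
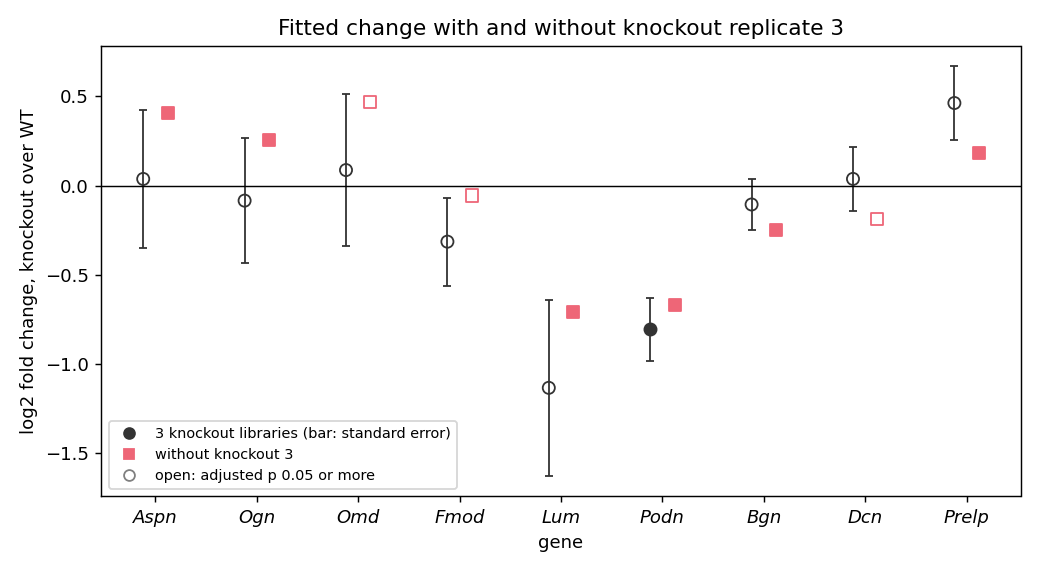
Fitted log2 fold change of each SLRP gene, knockout over WT, with all libraries (dark circles, bars are the standard error) and without knockout replicate 3 (red squares); filled symbols have an adjusted p under 0.05. With all libraries only Podn is filled, and without replicate 3 Aspn, Ogn, Lum, Podn, Bgn and Prelp are.

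The 3 chromosome 13 genes had the smallest distances between profiles of any members over the 6 libraries. As a description over 6 libraries of 2 genotypes, of which knockout replicate 3 sets most of the spread, Pearson's r of log2 CPM was 0.991 for Aspn and Ogn, 0.985 for Aspn and Omd, and 0.959 for Ogn and Omd. The root mean square distance of their log2 CPM, each centred on its WT mean, was 0.0955, 0.0997 and 0.175. Fmod, on chromosome 1, was nearly as close to Ogn (r = 0.951, distance 0.195) as Omd was, but was further from Aspn (r = 0.915, distance 0.279). Dcn and Bgn, on different chromosomes, had a distance of 0.206 (r = 0.53), so that likeness was not limited to neighbours. For the neighbours Dcn and Lum r was -0.621, and for the neighbours Fmod and Prelp it was -0.945. Lum and Fmod, on different chromosomes, had r = 0.963 but a distance of 0.817, since Lum was lower in all knockout libraries.

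By the same distance, the genes most like Lum were AW551984 (0.119), the transcription factor Sox21 (0.137) and the imprinted zinc finger gene Peg3 (0.142). Their log2 fold changes were -1.27, -1.03 and -1.13, and like Lum none had an adjusted p under 0.05 in edgeR's test. Closest to Podn were Shf (0.0563), Dnm3 (0.0721) and Abi3bp (0.0884), which fell by 0.87, 0.83 and 0.86 on the log2 scale (adjusted p = 0.0111, 0.0135 and 0.00693 by edgeR). Closest to Prelp were Ggact (0.0538), Cdk18 (0.0571) and Ptger1 (0.0572), with log2 fold changes of 0.52, 0.40 and 0.46 that did not pass. All of these genes were picked for likeness to a member over the same 6 libraries. Their fold changes and adjusted p-values therefore largely follow from that choice and are not separate evidence.

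Of 10 further genes of the family, 5 passed the count filter, and 2 of these rose and 0 fell, where 16.4% of all genes were higher and 16.6% lower. Tsku, a secreted inhibitor of several growth factor pathways, was at 37.5, 32.3 and 38.7 CPM in WT and at 53.7, 55.5 and 102 CPM in knockout. Its log2 fold change was 0.96 (SE 0.26, adjusted p = 0.0306 by edgeR), and 0.60 without knockout replicate 3 (adjusted p = 0.000234). Podnl1, the closest relative of Podn, was at 1.19, 1.14 and 1.19 CPM in WT and at 1.81, 2.33 and 2.05 CPM in knockout, so that the pair moved in opposite directions. Its log2 fold change was 0.81 (SE 0.24, adjusted p = 0.0413 by edgeR), and 0.82 without knockout replicate 3 (adjusted p = 0.0453). The 2 calls were lost on leaving out any 1 WT library, with an adjusted p of 0.0905 to 0.111 for Tsku and of 0.115 to 0.127 for Podnl1. Those fits called 5.11% to 7.01% of all genes higher, against 16.4% with all libraries. The call of Podnl1 was also lost without knockout replicate 1 (0.0612), without knockout replicate 2 (0.114), with DESeq2 (0.0671) and with the replicate number as a block (0.109). Chadl (0.50, adjusted p = 0.33), Kera (-0.87, adjusted p = 0.302) and Ecm2 (-0.12, adjusted p = 0.875) did not pass in edgeR's test. Leaving out 1 library gave 0.12 (without knockout replicate 3) to 0.68 for Chadl and -1.68 (without knockout replicate 2) to -0.43 (without knockout replicate 3) for Kera, and Ecm2 was at 0.30 without knockout replicate 3. Chadl was at 1.24, 0.902 and 1.42 CPM in WT and at 1.24, 1.33 and 2.48 CPM in knockout. Kera, which follows Lum on chromosome 10, was at only 0.191 to 1.71 CPM. Ecm2, which precedes Aspn on chromosome 13, was at 0.955 and 0.950 CPM in knockout replicates 1 and 2, above the 0.712 to 0.902 CPM of WT, and at 0.238 CPM in replicate 3. Epyc, Chad and Nyx had at most 10 counts in any library. Optc, which lies 2.3 kb from Prelp, had 7 counts in each WT library and 10, 16 and 58 in knockout replicates 1 to 3. Nepn was at 0 counts in 5 libraries and at 6 in knockout replicate 3.

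Of 30 enzymes that build and sulphate GAG chains, 4 rose and 2 fell, with a median log2 fold change of 0.086. Over all genes 16.4% were higher and 16.6% lower, so neither count exceeds the background share. Chst11, which sulphates chondroitin, was at 27.7, 20.4 and 24.4 CPM in WT and at 50.1, 54.4 and 65.5 CPM in knockout. It had a log2 fold change of 1.23 (SE 0.15, adjusted p = 0.00387 by edgeR). Csgalnact1, which starts chondroitin chains, rose by 0.62 on the log2 scale (adjusted p = 0.0214). Chst2, which sulphates N-acetylglucosamine, fell by 0.66 (adjusted p = 0.0108), and Xylt1, which attaches the first sugar of a chain to a core protein, fell by 0.42 (adjusted p = 0.0198), both by edgeR. Leaving out any 1 WT library ended the calls of Csgalnact1 (adjusted p 0.0754 to 0.0822) and Xylt1 (0.0615 to 0.0782), and leaving out knockout replicate 2 ended that of Xylt1 (0.0596). Without any 1 WT library 1 enzyme rose and 1 fell, where 5.11% to 7.01% of all genes were higher and 5.17% to 7.31% lower. Without knockout replicate 3 the counts were 4 and 7, against 23.9% and 24.2% of all genes.

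Of 27 other proteoglycan core genes 23 were tested, of which 6 rose and 4 fell, with a median log2 fold change of 0.22. The shares over all genes were 16.4% higher and 16.6% lower. Esm1, which encodes the endothelial proteoglycan endocan, had 7 counts over the WT libraries and 95 over the knockout libraries, a ratio of 13.6 (95% counting interval 6.35 to 34.8, adjusted p = 0.00433 by edgeR). Of the endothelial markers Pecam1 had 2, 1 and 0 counts in WT and 11, 10 and 11 in knockout. Cdh5 and Emcn had at most 5 counts in any library, and none of these genes passed the count filter. The 2 markers that did, Kdr and Tek, summed to 47.9 to 58.9 CPM in WT and 31.6 to 66.3 CPM in knockout, mostly from Tek. The part of endothelial cells in the Esm1 result was not tested. Prg4, the joint lubricant, was at 8.75, 5.74 and 5.27 CPM in WT and at 60.1, 29.8 and 17.4 CPM in knockout (log2 fold change 2.44, SE 0.47, adjusted p = 0.0119). Spock2, a testican, was at 26.0, 29.5 and 31.1 CPM in WT and at 9.36, 8.59 and 1.81 CPM in knockout (log2 fold change -2.13, SE 0.51, adjusted p = 0.0219). Gpc2, a glypican, fell by 0.60 on the log2 scale (adjusted p = 0.0226). Another glypican, Gpc4, rose by 1.16 (adjusted p = 0.00144 by edgeR), from a mean of 297 CPM in WT to 666 CPM in knockout. Gpc4 was the only gene of this list past the study's thresholds in the fit made here. Gpc1, Gpc3 and Gpc6 had negative log2 fold changes that did not pass (adjusted p = 0.726, 0.0979 and 0.25 by edgeR). The libraries of Esm1, Prg4, Spock2, Gpc2 and Gpc4 did not overlap between the genotypes. The calls of Spock2 (adjusted p 0.0637 to 0.0805) and Gpc2 (0.0569 to 0.089) were lost without any 1 WT library. That of Gpc2 was also lost without knockout replicate 1 (0.0576) and with the replicate number as a block (0.0615). The call of Prg4 was lost without WT replicate 2 (0.059) or WT replicate 3 (0.062). The list had 3 higher and 0 lower genes without WT replicate 2 or 3. Of all genes, 5.75% and 5.11% were higher and 6.13% and 5.17% lower in these fits. Without WT replicate 1 or knockout replicate 1 the list had 2 lower genes, where 7.31% and 13.4% of all genes were lower. Without knockout replicate 3 it had 11 higher and 6 lower genes, where 23.9% and 24.2% of all genes were called.

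Of 25 collagens, ligands, receptors and proteases that SLRPs bind or meet, 5 rose and 1 fell, with a median log2 fold change of 0.15, against 16.4% of all genes higher and 16.6% lower. Met, the receptor of hepatocyte growth factor and one that Dcn binds, was at 17.9, 19.5 and 14.9 CPM in WT and at 45.3, 29.1 and 42.9 CPM in knockout (log2 fold change 1.17, SE 0.19, adjusted p = 0.00772). Tlr4, a receptor of Bgn, was at 8.46, 7.31 and 6.26 CPM in WT and at 13.2, 14.0 and 21.9 CPM in knockout (log2 fold change 1.15, SE 0.23, adjusted p = 0.013). Its level was highest in knockout replicate 3, the library with the highest summed macrophage markers. Knockout replicates 1 and 2 were also above all WT libraries. Their macrophage sums were 90.1 and 57.7 CPM, within the WT range of 53.9 to 110 CPM. Without knockout replicate 3 the log2 fold change of Tlr4 was 0.89 (adjusted p = 0.000659 by edgeR). The part of macrophages in this result was not tested. Col5a3, a chain of the collagen V that starts fibrils, was at 89.4, 70.7 and 81.9 CPM in WT and at 47.8, 48.3 and 47.7 CPM in knockout (log2 fold change -0.75, SE 0.10, adjusted p = 0.00456). The knockout libraries of Col5a3 lay close together, replicate 3 included. The other collagen V chains were more abundant and did not fall. Col5a2 was at 1638, 1398 and 1621 CPM in WT and at 2599, 2877 and 2071 CPM in knockout. Its log2 fold change was 0.70 (adjusted p = 0.0139 by edgeR), and that of Col5a1 was 0.47 and did not pass (adjusted p = 0.285 by edgeR). The call of Tlr4 was lost without WT replicate 2 (0.0589) or WT replicate 3 (0.0636), and either left 1 higher gene in the list. Those 2 fits called 5.75% and 5.11% of all genes higher. Without knockout replicate 3 the list had 11 higher and 4 lower genes, against 23.9% and 24.2% of all genes. The fit with the Y-linked covariate sets only knockout replicate 2 against WT, so its calls are not given. In that fit the log2 fold change was 0.74 for Met, 0.93 for Tlr4 and -0.74 for Col5a3.

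**Figure D4:**
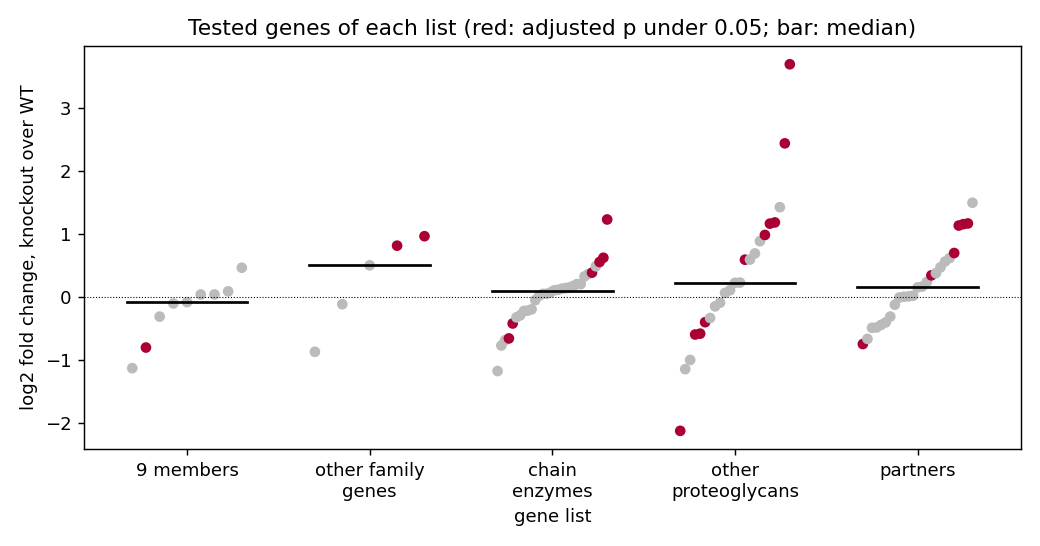
Log2 fold change, knockout over WT, of every tested gene in 5 lists (9, 5, 30, 23 and 25 genes), ordered within each list; red points have an adjusted p under 0.05 and black bars are medians. The SLRP members have the only median below 0 (-0.085), and 1 of their 9 points is red.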

How the data were processed

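Libraries were poly(A)-selected, stranded and paired-end. The authors aligned reads to GRCm38/mm10 with HISAT2 2.1.0, and the counting program and strand setting are not given in the sources used here. The authors deposited raw counts per gene, with gene lengths, and FPKM values computed with Cufflinks 2.1.1 for 12633 genes. The columns of the authors' own comparison, log2 fold changes and adjusted p-values (FDR), were not used. A second deposited copy of the counts equals the first. Genotype and replicate were taken from the sample titles.

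Genotypes were compared on the counts of all 6 libraries with edgeR 4.0.16 in R 4.3.3 (TMM, filterByExpr at its defaults, quasi-likelihood test without covariates) over 13386 genes, with Benjamini-Hochberg adjustment over all of them. The study's thresholds (FDR under 0.01, fold change over 2, FPKM over 1) do not name the samples, and the mean of at least 1 genotype was used for FPKM. The limit of 0.05 was a choice made here. As standard error, the absolute log2 fold change was divided by the square root of F. Log2 CPM used a prior count of 2. Alternatives were DESeq2 1.42.0, limma 3.58.1 on log2(FPKM + 1) and log2(FPKM + 0.1), the edgeR exact test, other scalings, no count filter, the replicate number as a block, a term for Y-linked transcripts and leaving out each library. The fit was tested on simulated data. With 20545442 to 21746898 counts per library, 3 counts correspond to 0.138 to 0.146 CPM.

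The 9 members and all gene lists were chosen with earlier results of these data known. Of the lists, the text names every further family gene and, in each direction, the 2 with the largest absolute log2 fold change among those past an adjusted p of 0.05. Also named are the other tested glypicans and the other collagen V chains, for which only the main fit was read. For the 3 members with the largest absolute log2 fold change it names the 3 most similar genes. Macrophage markers were 8 of 8 tested with none passing, fibroblast markers had 3 lower (Fbln1, Pdgfra, Thy1) and 0 higher of 12, and epithelial markers had 0 of 5 passing. Of the endothelial, skeletal muscle, osteoblast, chondrocyte, tendon, adipocyte, smooth muscle and pericyte, and pluripotent markers, 1 osteoblast and 1 smooth muscle or pericyte gene rose and none fell.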

Additional observations from a re-analysis of the deposited data

How the results depend on the processing

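The log2 fold changes of Podn, Lum, Fmod and Prelp kept their sign under every alternative run. The fall of Podn lost its call without WT replicate 2 and without WT replicate 3, which left 0 lower members, as did an adjusted p limit of 0.01. Calls of the fit with the Y-linked covariate are not given, since it sets only knockout replicate 2 against WT. Leaving out each library in turn gave 0 to 3 higher and 0 to 3 lower members, the 3 and 3 coming from the fit without knockout replicate 3, whose knockout group holds 2 libraries. Over all genes, these fits called 5.11% to 23.9% higher and 5.17% to 24.2% lower. Apart from the fit with the Y-linked covariate, the study's thresholds called 0 members in every alternative fitted to counts. They were not applied to the limma fits. Log2 fold changes of Aspn, Bgn, Dcn, Ogn, Omd, Ecm2 and Kera changed sign in some alternatives. Scaling by library size only gave -0.024 for Aspn and -0.023 for Dcn, and it turned the split of all called genes from 2195 higher and 2218 lower to 1750 and 2684. With limma, Aspn was at -0.17 (pseudocount 1) and -0.18 (pseudocount 0.1), Dcn at -0.034 in both, and Omd at -0.093 and -0.17. The Y-linked covariate gave -0.21 for Dcn, 0.36 for Ogn, 0.29 for Ecm2 and 0.017 for Kera. Over the fits without 1 library the range was -0.25 to 0.41 for Aspn, -0.25 to 0.015 for Bgn, -0.19 to 0.15 for Dcn, -0.37 to 0.26 for Ogn, -0.18 to 0.47 for Omd and -0.38 to 0.30 for Ecm2. The cause was not tested.

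The replicate numbers showed no sign of pairing the libraries. Deviations from the genotype means correlated at -0.0656, 0.0366 and 0.0109 between libraries of the same number, and not every library correlated best with its own number. Knockout replicate 3 sets much of the deviation in its group, so this check cannot exclude pairing. With the number as a replicate block, 1385 genes were higher and 1490 lower, Podn had -0.83 (adjusted p = 0.0321), Aspn -0.12 and Omd -0.057, and 1 further family gene was higher.

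Of the further family genes, 1 was higher with library size only, without the count filter and with limma at either pseudocount. The fits without 1 library gave 0 to 2. For the GAG chain enzymes, 4 were lower with library size only and 1 with limma at either pseudocount. Fits without 1 library gave 1 to 4 higher and 1 to 7 lower. The other proteoglycan cores had 3 to 11 higher and 0 to 6 lower without 1 library. The partners had 2 lower with library size only, DESeq2 and the edgeR exact test, and 1 to 11 higher and 1 to 4 lower without 1 library. Over all genes, 13.1% were higher and 20.1% lower with library size only. Without the count filter the shares were 11.9% and 12.2%, and with limma 13.3% and 15.5% (pseudocount 1) or 13.4% and 14.8% (pseudocount 0.1). DESeq2 gave 15.3% and 14.3%, and the edgeR exact test 16.4% and 16.8%. Fits without 1 library gave 5.11% to 23.9% higher and 5.17% to 24.2% lower. Depth limits Omd, Chadl, Ecm2, Kera and Podnl1 most, the tested family genes with the fewest counts.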
